A study of Mus musculus with 16 samples.

Results

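The MYC, MAX and MXD network is a group of transcription factor genes whose proteins pair through a shared helix-loop-helix and leucine zipper fold. Its 10 members here are Myc, Mycn, Max, Mxi1, Mxd1, Mxd3, Mxd4, Mnt, Mlx and Mga. They were taken by gene symbol from 2 deposited comparisons, each with 23420 rows, and all 10 symbols were found in both. The network was chosen by function and with measured values in view, namely the members' deposited means, fold changes, errors and status in both comparisons. Every change of a member is therefore given as a description that supports nothing.

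The study asked how loss of TET2, an enzyme that oxidizes 5-methylcytosine in DNA, changes transcripts in mouse blood progenitors. It compared Tet2KO mice (genotype Tet2-/-) with WT mice (genotype Tet2fl/fl, so that the controls carry floxed alleles), all 40 weeks old, and what drives the deletion is not stated in the labels. Granulocyte-monocyte progenitors (GMP, Lin-cKit+Sca1-CD150-CD16/32+) are committed to granulocytes and monocytes, and multipotent progenitors (MPP, Lin-cKit+Sca1+CD48+CD150-) come before them and still feed several lineages. Each population was sorted from the bone marrow of 4 Tet2KO and 4 WT mice, 16 libraries in all, and 3 mice of each genotype gave both populations.

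MYC and MYCN are activators that bind DNA as pairs with MAX, and they drive ribosome production, metabolism and entry into the cell cycle. The MXD proteins, MNT and MGA also pair with MAX and act at the same DNA sites as repressors, the MXD proteins and MNT through the SIN3 corepressor and MGA as part of a Polycomb complex. MLX is a relative of MAX that pairs with MLXIP (MondoA) and MLXIPL (ChREBP), which respond to glucose. In blood formation MYC and MYCN together are needed for the function of stem and progenitor cells, and MXD genes are known to be induced as myeloid cells mature.

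The site that these dimers prefer is the E-box CACGTG, which reads the same on both strands and is 1 of the forms of the wider E-box CANNTG. RefSeq promoter windows (GRCm38.p6, from 250 bases before to 50 after a transcript start) were at hand for 9 members, and Myc is not among them. CACGTG was found in the windows of 4 members, Max, Mlx, Mnt and Mxd4, against 8.09% of all 27025 genes in the table. CANNTG was found for 7 of the 9, against 75.0% of all genes. The 60 bases around each CACGTG are shown because this is the network's own binding site in its own promoters, with the site in capitals.
Max: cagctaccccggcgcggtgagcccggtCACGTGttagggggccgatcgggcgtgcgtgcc
Mlx: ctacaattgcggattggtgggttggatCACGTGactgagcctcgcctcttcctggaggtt
Mnt: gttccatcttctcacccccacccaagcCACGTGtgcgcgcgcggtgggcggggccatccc
Mxd4: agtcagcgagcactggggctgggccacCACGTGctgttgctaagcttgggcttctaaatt

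The stretches lie on the minus strand at chr12:76962219-76962278 for Max and chr5:34187897-34187956 for Mxd4, and on the plus strand at chr11:101087223-101087282 for Mlx and chr11:74830774-74830833 for Mnt. The site of Max begins 3 bases before its RefSeq start and runs across it, a start that lies upstream of the gene's GENCODE bounds and is held by 0 GENCODE transcripts of Max, and those of Mlx, Mnt and Mxd4 begin 40, 123 and 219 bases before theirs. Mxi1 has 3 windows and Mycn has 1, and none of them holds CACGTG. The other members with a call, Mxi1 and Mycn, have other forms of CANNTG, shown here in capitals on 60 bases from the window of the first Mxi1 start (chr19:53310398-53310457, plus strand) and from that of Mycn (chr12:12941996-12942055, minus strand).
Mxi1: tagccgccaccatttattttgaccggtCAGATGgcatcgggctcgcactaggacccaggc
Mycn: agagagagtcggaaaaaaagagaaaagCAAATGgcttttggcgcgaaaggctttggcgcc

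The windows also hold CpG dinucleotides, the substrate of DNA methylation in mammals. The 11 member windows held 14 to 49 CpG (median 24), all above the median of 7 over the 32851 windows of the table. The upper quartile over all windows was 20, and those of Mlx (18), Mxd4 (18), Mycn (14) and the first Mxi1 start (17) lay below it. CACGTG itself holds a CpG, and its share was not compared with windows of like CpG number. These letters describe the sequence and do not show binding or methylation.

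**Figure D1:**
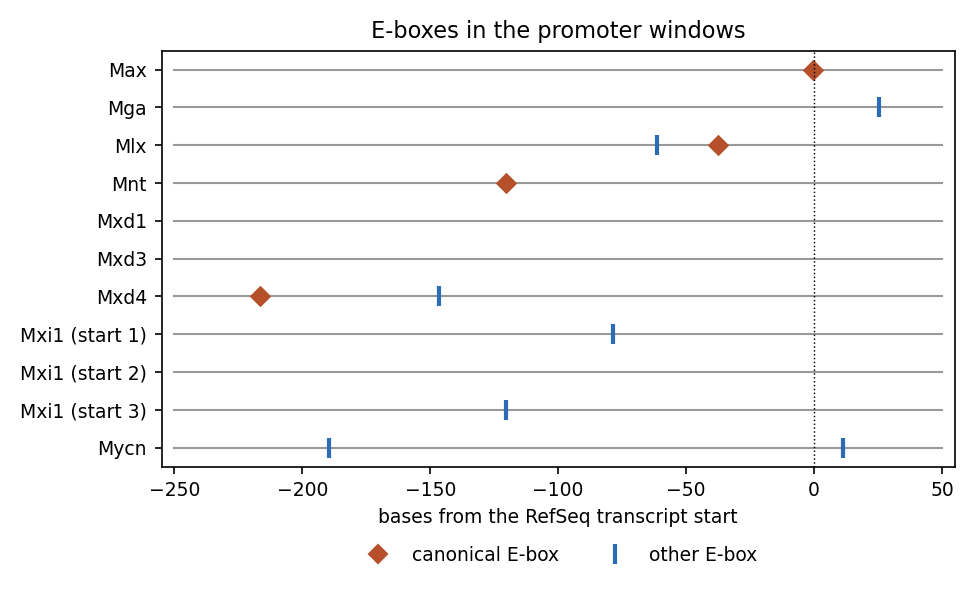
Position of E-boxes in the 11 RefSeq promoter windows of 9 network members, in bases from the transcript start, with one line per window. Diamonds mark CACGTG, found in Max, Mlx, Mnt and Mxd4, and bars mark other forms of CANNTG.

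Values per library were not at hand, so each gene is described by the deposited mean over a population's libraries, a log2 fold change (Tet2KO over WT) and its standard error (SE). A called gene is one that the authors' deposited table gives an adjusted p of at most 0.05. The groups' overlap could not be looked at without values per library. Among progenitor and gate markers, Kit had 6397 normalized counts in GMP and 7542 in MPP, Ly6a (Sca1) 19.5 in GMP and 266 in MPP, Flt3 602 in GMP and 2886 in MPP, and Mpo 200049 in GMP and 23699 in MPP as deposited means. Ly6a and Flt3, markers of MPP, thus had the higher mean in MPP, and Mpo, a marker of GMP, in GMP. Cd48, which is part of the MPP gate, had the higher mean in GMP, with 1270 normalized counts in GMP and 1026 in MPP. Tet2 itself was higher in the libraries labelled Tet2KO, by 0.35 (SE 0.0748, adjusted p = 0.000409) in GMP and by 0.44 (SE 0.0992, adjusted p = 0.00551) in MPP in the authors' deposited tables. This value for the whole gene cannot show whether a deleted exon is missing and so does not check the labels. "Tet2KO" below means the libraries so labelled, and each direction rests on the names the authors gave to the tables.

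In GMP, 3 of the 9 members that were tested were called in the authors' deposited table, where 3.96% of all 11503 tested genes were. Max and Mycn rose (1.75% of all genes were called higher) and Mxi1 fell (2.22% were called lower). In MPP none of the 10 members was called, where 0.616% of all 11859 tested genes were. An unadjusted p under 0.05 was found for 5 of the 9 tested members in GMP, against 16.4% of all genes, and for 1 of 10 in MPP, against 9.72% of all genes. These shares belong to contrasts that were in view when the network was chosen, and nothing is read from them. With an empirical null, which divides each statistic by the spread seen over all genes, none of the 3 GMP calls remained, with adjusted p-values of 0.309 for Max, 0.310 for Mxi1 and 0.525 for Mycn. In bulk RNA, a change in the share of cells that express a gene and a change in RNA per cell cannot be told apart.

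**Figure D2:**
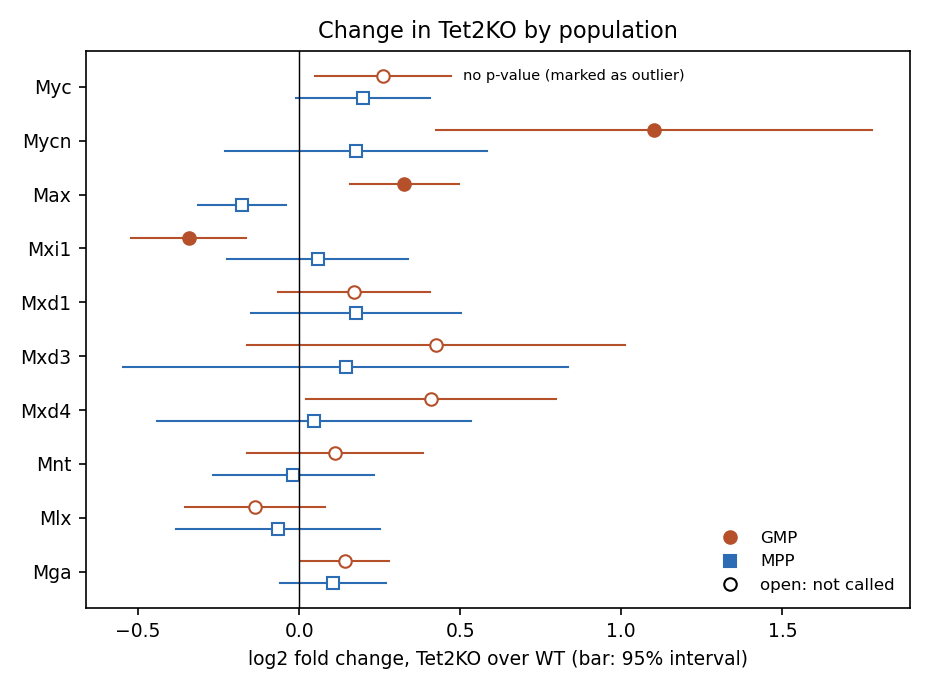
Log2 fold change of Tet2KO over WT for the 10 members in GMP (circles) and MPP (squares), with 95% intervals from the deposited standard errors. Filled symbols are called genes, namely Mycn, Max and Mxi1 in GMP, and Myc in GMP carries no p-value.

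Myc (chromosome 15, 61985391 to 61990374, plus strand, mm10) was the most abundant member per kb of exon in both populations. Its mean was 9951 normalized counts in GMP and 7670.3 in MPP, above 99.5% of tested genes in GMP and 99.4% in MPP. In GMP the authors' deposited table marks Myc as an outlier and gives it no p-value, a mark that 2.66% of GMP genes above the mean filter carry. Its log2 fold change there was 0.26 (SE 0.108), a 1.20-fold level in Tet2KO relative to WT with a 95% interval of 1.03 to 1.38. That is 2.41 SEs from 0, where the called genes of the table start at 3.09. In MPP the value in the authors' deposited table was 0.20 (SE 0.106, adjusted p = 0.535), or 1.15-fold (0.994 to 1.32). The point estimates of Myc thus lay above 0 in both populations, one without a test and one short of a call.

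Mycn (chromosome 12, 12936093 to 12941914, minus strand) differed most of all members between the populations in level. Its mean was 20.1 normalized counts in GMP and 249 in MPP, that is 1.82 in GMP and 26.4 in MPP per 1000000 of the summed means. The tables were normalized separately, so these levels are set side by side without a test. Their ratio was 0.0689, and 5 of 9719 genes whose mean reached 50 in either population had a lower one. In the authors' deposited table Mycn rose in Tet2KO GMP by 1.10 (SE 0.346, adjusted p = 0.0411), a 2.15-fold level with an interval of 1.34 to 3.43. The smallest change that could be called at this SE was 1.07, so Mycn lay just inside the threshold. For MPP the authors' deposited table gives 0.18 (SE 0.207, adjusted p = 0.850), where a change of 0.748 would have been called.

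Mycn in GMP stood at the low end of what was tested, since genes entered from a mean of 10, and its mean lay above 7.21% of tested genes. Ly6a, the Sca1 gene by which the gates separate the populations, had 1.77 in GMP and 28.2 in MPP on the same scale of summed means. Of the 3 MPP markers in GMP, Flt3 had 0.26 (adjusted p = 0.173), Ly6a 0.42 (adjusted p = 0.567) and Cd48 -0.12 (adjusted p = 0.510) in the authors' deposited table, so that none was called. The GMP markers Mpo and Fcgr3 (CD16, part of the GMP gate) had 0.077 (adjusted p = 0.691) and -0.32 (adjusted p = 0.204) there, also uncalled. Elane, also a GMP marker, carried the outlier mark with -0.079 (SE 0.142). Among the 4 megakaryocyte markers in GMP, 1 of the 3 tested was called, Pf4, with a rise of 1.35 and a mean of 37.2. Itga2b had 0.11 and Gp9 -0.34 in GMP without a call, and Pf4 had -0.92 in MPP, also uncalled. Of the 4 monocyte and macrophage markers tested in GMP, Csf1r (0.56) and Cd68 (0.34) were called higher. Emr1 (0.72) and Ly86 (-0.18) were not called. Of all tested genes in GMP, 1.75% were called higher. Of the 4 mast cell and basophil markers, 2 were tested in GMP, and the authors' deposited table calls Cma1 lower (-1.71, mean 18.7) and gives Mcpt8 -0.052 (adjusted p = 0.899, mean 260.4). The other two carry the outlier mark there, Ms4a2 with -1.28 (SE 0.146, mean 736) and Cpa3 with -0.28 (SE 0.257, mean 3549). None of the few tested markers of T and NK cells, mature neutrophils or stroma was called in GMP, and no B cell or erythroid marker was tested there. Their part in the changes of the network was not tested, and summed levels per genotype could not be had from tables of means.

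Max (chromosome 12, 76937269 to 76962201, minus strand) encodes a partner with which MYC, MYCN, the MXD proteins, MNT and MGA can all pair. It had a mean of 2116 normalized counts in GMP and 1646 in MPP. In the authors' deposited table Max rose in Tet2KO GMP by 0.33 (SE 0.0863, adjusted p = 0.00936), a 1.25-fold level with an interval of 1.12 to 1.41. For MPP the authors' deposited table gives Max -0.18 (SE 0.0699, adjusted p = 0.328), a 0.885-fold level (0.805 to 0.973), where the smallest change callable at that SE was 0.252. Max was thus called higher in GMP and had an uncalled value below 0 in MPP, the only member with an unadjusted p under 0.05 there.

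Mlx (chromosome 11, 101087277 to 101092207, plus strand) had a mean of 292 normalized counts in GMP and 154 in MPP, the highest ratio of shares of the summed means among the members (1.62). Its log2 fold change was -0.14 (SE 0.111) in GMP and -0.065 (SE 0.162) in MPP in the authors' deposited tables, with no call. Mlx shares 385 exonic bases with Psmc3ip on the opposite strand, and the labels do not say whether reads were counted by strand. The partners of MLX were not called either. Mlxip had 0.13 (SE 0.0636, adjusted p = 0.255) in GMP and 0.22 (SE 0.0969, adjusted p = 0.398) in MPP in the authors' deposited tables, and Mlxipl had means of 3.72 in GMP and 0.503 in MPP, under the filter. Of the genes that MLX dimers are known to induce, Arrdc4 had 0.45 in GMP (adjusted p = 0.392) and was marked as an outlier in MPP, and Txnip was marked so in both of the authors' deposited tables.

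Mxi1 (chromosome 19, 53310518 to 53375810, plus strand), a MAX-binding repressor of the MXD family also called Mad2, was the member with a call below 0. It had 502 normalized counts in GMP and 486 in MPP. In the authors' deposited table Mxi1 fell in Tet2KO GMP by 0.34 (SE 0.0909, adjusted p = 0.00953), a 0.788-fold level in Tet2KO relative to WT (0.697 to 0.892). The MPP value of the authors' deposited table was 0.057 (SE 0.143, adjusted p = 0.951), a 1.04-fold level (0.856 to 1.26). Mxi1 shares 194 exonic bases with Gm10197 on the opposite strand, against 6656 exonic bases of its own.

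The other 3 MXD genes, also repressors, had values above 0 in both populations and no call. Mxd1 (chromosome 6, 86647042 to 86669161, minus strand), a gene known to be induced in maturing granulocytes, had 260.1 normalized counts in GMP and 291 in MPP, with log2 fold changes of 0.17 (SE 0.120) in GMP and 0.18 (SE 0.166) in MPP in the authors' deposited tables. Mxd4 (chromosome 5, 34173883 to 34187720, minus strand) had 91.7 in GMP and 118 in MPP, with values in the authors' deposited tables of 0.41 (SE 0.198, adjusted p = 0.270) in GMP and 0.047 (SE 0.249) in MPP. Mxd3 (chromosome 13, 55325168 to 55329823, minus strand), a member linked to proliferating cells, was the least abundant in GMP by mean with 16.9, against 30.7 in MPP, and in the authors' deposited tables it had values of 0.42 (SE 0.300) in GMP and 0.14 (SE 0.352) in MPP. At these SEs an estimate in GMP would have been called from 0.371 for Mxd1, 0.613 for Mxd4 and 0.928 for Mxd3. Estimates of the size of those of Max or Mxi1 would thus not have been called for any of them. This limit is on the estimate and does not exclude a true change of that size. Mxd3 shares 105 exonic bases with Prelid1 and Mxd4 514 with Gm42846, both on the opposite strand.

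Mnt (chromosome 11, 74830920 to 74845725, plus strand), which encodes a broadly expressed MAX-binding repressor, had 467 normalized counts in GMP and 504 in MPP. Its log2 fold changes were 0.11 (SE 0.139) in GMP and -0.018 (SE 0.128) in MPP in the authors' deposited tables. Mga (chromosome 2, 119897228 to 119969581, plus strand), whose large protein carries a second, T-box DNA-binding domain, had 7382 in GMP and 7833 in MPP. Its values in the authors' deposited tables were 0.14 (SE 0.0692, adjusted p = 0.273) in GMP and 0.10 (SE 0.0837, adjusted p = 0.747) in MPP, neither of them called. The precision for Mga was among the best of the network, and its 95% interval in GMP ran from 1.00 to 1.21-fold.

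Levels can be compared between genes only per length, here as mean normalized count per kb of annotated exon. On that scale Myc led with 4067 in GMP and 3135 in MPP, followed by Max with 1081 in GMP and 841 in MPP and by Mga with 529.9 in GMP and 562 in MPP. The others lay far lower, from 147 for Mlx down to 7.16 for Mycn in GMP, and from 109.8 for Mnt down to 23.2 for Mxd3 in MPP. Summed over Myc and Mycn, the activators stood at 377% of the Max level in GMP and 383% in MPP. The 6 MAX-binding antagonists, Mxi1, Mxd1, Mxd3, Mxd4, Mnt and Mga, summed to 74.0% of the Max level in GMP and 102% in MPP. Mga alone made up 49.0% of the Max level in GMP and 66.9% in MPP, and the 4 MXD genes 15.5% in GMP and 22.5% in MPP. These are ratios of transcripts averaged over both genotypes, with no spread between libraries, and neighbours in the order cannot be tested against each other.

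**Figure D3:**
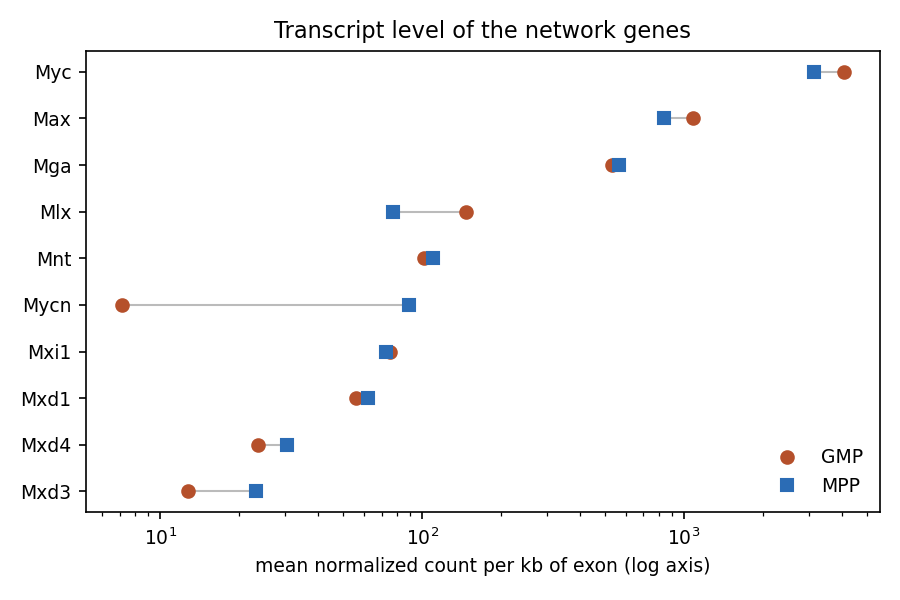
Mean normalized count per kb of exon for each member on a log axis, in GMP (circles) and MPP (squares). Myc, Max and Mga stand highest in both populations, from 529.9 per kb for Mga in GMP upward, and Mycn spans the widest gap, 7.16 in GMP and 88.9 in MPP.

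The changes in Tet2KO had the same sign in GMP and MPP for 7 of the 10 members and opposite signs for Max, Mxi1 and Mnt. The populations share mice, so this count is no independent repeat. The log2 fold change in GMP minus that in MPP was 0.50 (SE 0.111) for Max, -0.40 (SE 0.170) for Mxi1 and 0.92 (SE 0.403) for Mycn, each with a 95% interval that excludes 0 before any adjustment. Over all 17660 genes compared in this way, 0.0453% passed at an adjusted p of 0.05, and Max was the 1 member among them, a count from which nothing is read since both contrasts were in view when the network was chosen. For the other 7 members it ran from -0.071 for Mlx to 0.36 for Mxd4, with intervals that include 0. For Mga, the best measured of these, the interval was -0.17 to 0.25, so a difference between the populations as large as that of Max lay outside it. For Myc the interval was -0.23 to 0.36.

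**Figure D4:**
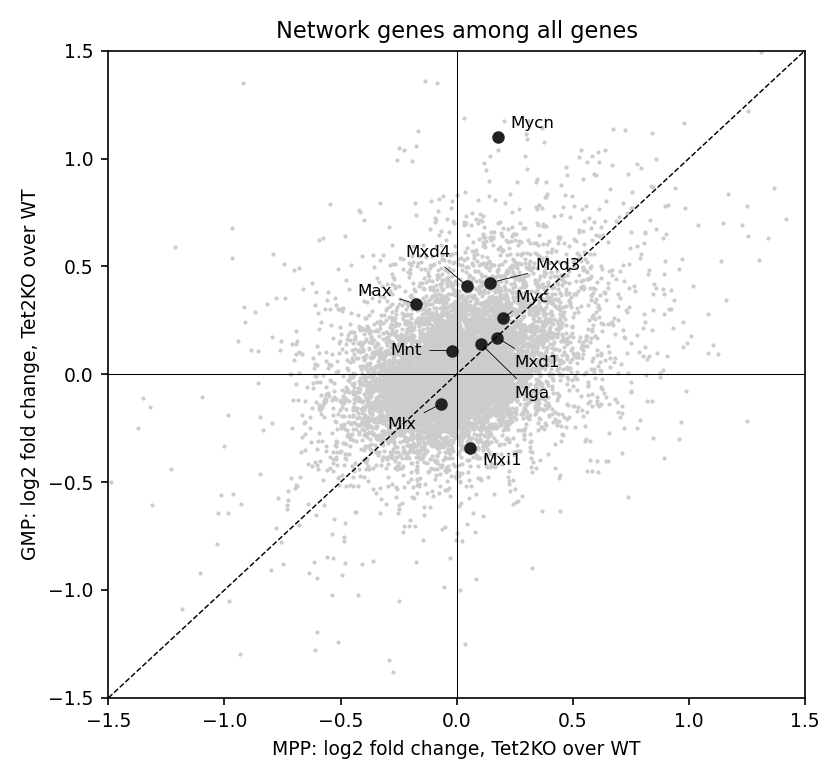
Log2 fold change of Tet2KO over WT in GMP (vertical) against MPP (horizontal) for the 10 members (black) and the other genes above the mean filter in both tables (grey), with the line of equal change dashed and values beyond the axes not drawn. Max lies above 0 in GMP and below 0 in MPP, Mxi1 the other way round, and Mycn high in GMP.

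By closeness of both log2 fold changes, among 9536 genes whose mean reached 50 in GMP and in MPP, the genes most like Mycn were Vwf, Wnt2b and Med12l (distances 0.0937, 0.122 and 0.149 on the log2 scale over 2 comparisons). Those most like Max were Itpr3, Bcl2l11 and a gene known by a clone number alone. Those most like Mxi1 were Timm23, Aldh6a1 and Gsr. In GMP all 3 neighbours of Mycn were called, none of the 3 of Max, and of the 3 of Mxi1 Gsr alone, against 3.96% of all tested genes. The neighbours were picked by these same fold changes, so their calls are not independent of that choice and nothing is read from them.

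Of 65 genes that MYC is known to induce, 57 were tested in GMP and 60 in MPP, and none was called in either of the authors' deposited tables. The share called over all tested genes was 3.96% in GMP and 0.616% in MPP, and a count of 0 in MPP is near that background. An unadjusted p under 0.05 was found for 6 of them in GMP, where 16.4% of all tested genes had one, and for 2 in MPP, where 9.72% had one. The ribosome biogenesis targets had a median log2 fold change of -0.035 in GMP (16 of 23 below 0) and -0.026 in MPP (13 of 24), against medians over all tested genes of 0.00025 in GMP and -0.0038 in MPP. Fbl and Dkc1, which encode a methyltransferase and a pseudouridine synthase of ribosomal RNA, had the smallest p-values of that list in the authors' deposited GMP table, with -0.17 (adjusted p = 0.338) and -0.15 (adjusted p = 0.343). The growth and metabolism targets had a median of -0.061 in GMP (28 of 34 below 0) and -0.12 in MPP (31 of 36). Odc1, the first enzyme of polyamine synthesis, had -0.30 in GMP (adjusted p = 0.0972), the glycolytic enzyme gene Hk2 0.22 (adjusted p = 0.0780), and in MPP Eif4a1 had -0.20 (adjusted p = 0.376) and Mcm5 -0.23 (adjusted p = 0.422), all in the authors' deposited tables.

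Of 8 genes that MYC is known to repress, 5 were tested in GMP and all lay above 0, with a median of 0.17. Among them Cdkn1a, the cyclin-dependent kinase inhibitor p21 and also a p53 target, rose in the authors' deposited table by 0.69 with an adjusted p of 0.00453 (SE 0.171). Of all tested genes in GMP, 1.75% were called higher and 49.9% lay below 0. Among the untested genes of the list in GMP, Thbs1 had -0.39 (SE 0.310, mean 87.1) with an outlier mark. Cdkn1c (-0.076) and Cdkn2b (0.075) had means under the filter. In MPP Cdkn1a had 0.39 and was marked as an outlier, and of the 5 tested genes of the list none was called (median -0.11, or -0.017 over genes with a mean of 50 or more). All 15 G2 and M phase genes lay below 0 in GMP (median -0.16), as did 49.9% of all tested genes, and 14 of 15 in MPP (median -0.13), as did 50.9% of all tested genes. In GMP 4 of them fell, Ect2 (-0.36), Ccnb1 (-0.33), Cdk1 (-0.39) and Plk1 (-0.28), where 2.22% of all tested genes were called lower, and in MPP none was called. Whether the lower level of these cycling genes has a part in the values of the network was not tested.

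None of the 18 MYC coactivator and partner genes was called, with medians of 0.037 in GMP and -0.011 in MPP. Over all tested genes 3.96% were called in GMP and 0.616% in MPP. The counts of 0 for this list and for the corepressor and MGA partner lists below are near that background. The helicase gene Ruvbl1 had -0.24 (adjusted p = 0.119) in GMP and -0.29 (adjusted p = 0.411) in MPP, as the authors' deposited tables give it. None of the 17 tested SIN3 and NCoR corepressor genes was called, with medians of -0.035 in GMP and -0.054 in MPP. Hdac3 had -0.26 in GMP (adjusted p = 0.0995) and Sap130 had 0.15 in GMP (adjusted p = 0.147) and 0.23 in MPP (adjusted p = 0.262) in the authors' deposited tables. Of the 12 partners of MGA in its Polycomb complex none was called. There were 8 below 0 in GMP (median -0.055) and 11 below 0 in MPP (median -0.078). Among them Wdr5 is also counted with the coactivators, and Hdac1 and Hdac2 with the corepressor genes, so these lists are not separate sets. The shares below 0 over all tested genes were 49.9% in GMP and 50.9% in MPP. Yaf2 had -0.24 in GMP (adjusted p = 0.174) and Cbx3 -0.28 in MPP (adjusted p = 0.347), again from the authors' deposited tables.

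Of 16 tested genes of MYC protein turnover, 2 fell in GMP, where 2.22% of all tested genes were called lower. Plk1, 1 of these 2, and Aurka, which was not called, are also counted among the G2 and M phase genes. Ppp2r5a, a regulatory subunit of the phosphatase PP2A, fell in the authors' deposited table by 0.24 with an adjusted p of 0.0190 (SE 0.0683), and the mitotic kinase gene Plk1 by 0.28 (SE 0.0882, adjusted p = 0.0384). In MPP none was called, where 0.616% of all tested genes were. In the authors' deposited table for MPP the kinase gene Pim2 had 0.67 (SE 0.221, adjusted p = 0.163) and Gsk3a, a kinase that marks MYC for degradation, 0.28 (SE 0.106, adjusted p = 0.284). The third MYC gene, Mycl, listed under its older symbol Mycl1, had means of 4.44 in GMP, under the filter, and 15.3 in MPP, where the authors' deposited table gives 0.76 (SE 0.383, adjusted p = 0.505).

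**Figure D5:**
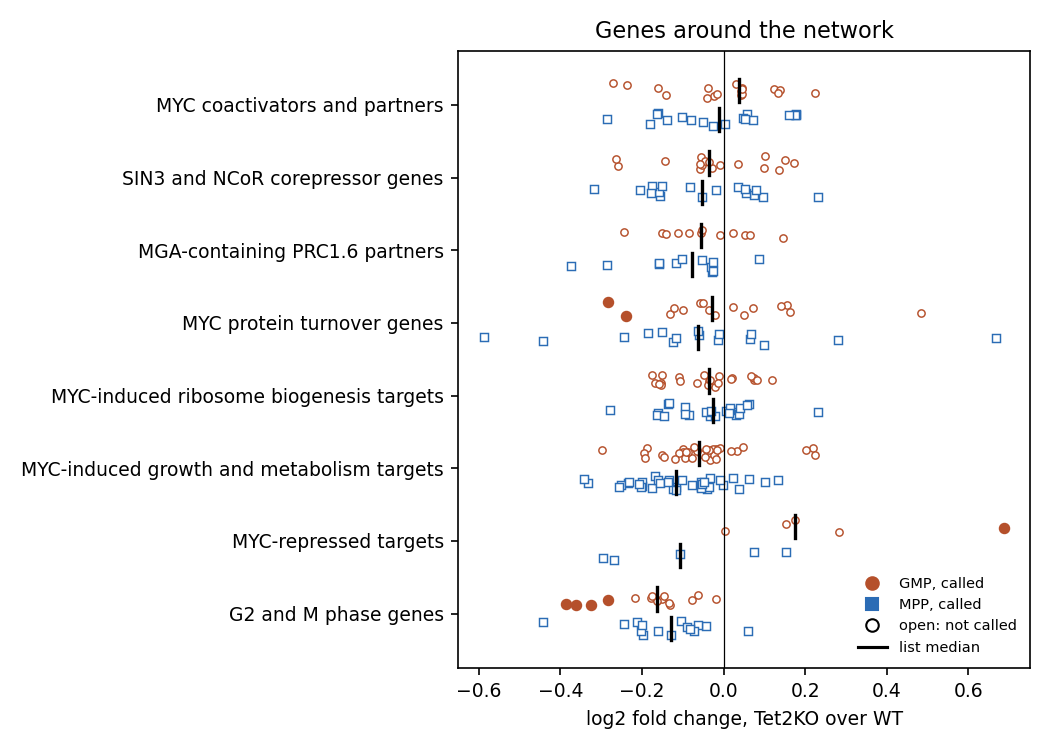
Log2 fold change of Tet2KO over WT for tested genes of 8 lists around the network, in GMP (circles) and MPP (squares), with black bars at list medians. Filled symbols are called genes, found in GMP in 3 lists (protein turnover, MYC-repressed targets, G2 and M phase) and in no list in MPP.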

How the data were processed

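Total RNA (2 ng) of sorted progenitors was amplified and read over 75 bp from one end, per the labels' protocols. The submitters' processing notes name STAR, mm10 and DESeq2 without versions. How reads were counted, with which annotation and whether by strand is not given in the sources used here. Each deposited table holds, per the file headers, a mean normalized signal per gene over all libraries, the log2 fold change (Tet2KO over WT), its SE, and a raw and an adjusted p-value. Depth per library is unknown, and the means summed to 11034000 in GMP and 9436200 in MPP. Genes with a mean under 10 or an outlier mark have no adjusted p. SEs reached at most 0.359 in GMP and 0.388 in MPP even for the lowest means, as shrunken fold changes give, so changes of weak genes may be understated. Precision followed the mean, with a median SE of 0.303 in GMP and 0.350 in MPP for means of 10 to 50, and of 0.0744 in GMP and 0.102 in MPP above 1000.

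The p-values were recomputed from fold change and SE. Intervals (95%) and the difference between populations use the SEs as normal errors, with tables taken as independent although mice are shared, and the Benjamini-Hochberg adjustment of the difference runs over 17660 genes with a p in both tables. Calls and the difference were tested on simulated data. The exon lengths, positions and overlaps come from GENCODE M21 of mm10, and promoter sequences from RefSeq. All members were named. From each list and table, up to 4 called genes of smallest adjusted p, or up to 2 of smallest p where none was called, were open to naming, as were the 3 genes nearest to each called member. One gene so named is not reported here. Members and lists were chosen with earlier results of these data known. The software was matplotlib 3.10.9, scipy 1.17.1, pandas 2.3.3, numpy 2.4.6 and Python 3.11.15. Alternatives were an adjusted p of 0.01, a mean of at least 50, recentring on the median, an empirical null and correlated errors.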

Additional observations from a re-analysis of the deposited data

Results flagged for a closer look

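Max stood out because its change in Tet2KO was not the same in GMP and MPP when the difference was tested. Its log2 fold change was 0.33 in GMP and -0.18 in MPP, a difference of 0.50 (SE 0.111), and the adjusted p over 17660 genes was 0.0206, where 0.0453% of genes passed. Max was 1 of 8 such genes, and the network was chosen with this value known, so it is no independent support. For Mxi1 and Mycn the same test gave an adjusted p above 0.99.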

How the results depend on the processing

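In GMP the number of members called higher, 2 as deposited, was 1 at an adjusted p of 0.01, where Mycn is lost with its adjusted p of 0.0411, and 1 over genes with a mean of at least 50, where Mycn leaves with its mean of 20.1 (Max in both), and 0 with an empirical null. The number called lower in GMP, 1 as deposited, was 0 with an empirical null, and that of MPP stayed 0 in all 4 alternatives. The robust spread of the statistics over all genes was 1.35 in GMP, by which the empirical null divides. With a mean of at least 50, the median of the other network genes in MPP was 0.22, against 0.49 as deposited, because Mycl1 leaves, and that of the MYC-repressed genes in MPP was -0.017, against -0.11, because Cdkn1c leaves. Over all genes in GMP, 201 were called higher and 255 lower as deposited, against 85 and 113 at an adjusted p of 0.01 and 36 and 36 with an empirical null. In MPP, 41 were higher and 32 lower as deposited, against 20 and 16 at 0.01 and 12 and 6 with an empirical null. The difference between the populations was called for 8 genes with independent errors and for 49 with correlated ones. Max passed the test of the difference under all 3 alternatives run, with errors correlated at 0.346 among them. That value is the correlation over genes of change divided by SE in GMP and MPP, so changes shared by the populations enter it. A positive correlation lowers the SE of every difference, so this alternative could not weaken the result for Max. Recentring and the mean filter left its difference at 0.50, so these passes add little. No value reversed, and 166 of 174 recomputed values kept their direction and side of the threshold or, for counts, stayed within 1.5 times. That tally says little about stability, since many of these values could hardly change. Recentring moved fold changes only slightly, and the mean filter and the empirical null left the fold change of each gene as it was. Many counts were 0 and stayed 0. The empirical null, under which all 3 GMP calls of members were lost, was not run on the gene lists or on the difference between the populations. Low means limit Mycn, Mxd3 and Mxd4. Leaving out each replicate was not run, and no paired analysis was possible because the deposited tables hold no values per library.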
